A study of Mus musculus with 2 samples.

Results

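The genes described are 38 components of Wnt signalling, taken by symbol from the 28001 features that both deposited matrices list. They comprise 10 Wnt ligands, 10 receptors or co-receptors, 11 secreted or membrane antagonists, 3 R-spondins and 4 intracellular genes, *Dact1*, *Dact2*, *Dact3* and *Axin2*, and all 38 were found. Single-cell RNA-seq had been performed on sorted tdTomato+ cells of adult skeletal muscle from C57BL/6J mice of the genotype Hic1CreERT2/CreERT2;Rosa26LSLtdTomato/tdTomato. In these mice tamoxifen (TAM) switches on tdTomato in cells that express *Hic1*, and in their progeny, so the cells recovered are those of the *Hic1* lineage that TAM reached. For the E10-P56 library, pregnant dams were gavaged with 7.5 mg TAM at E10. For the adult pulse library, mice of 8 weeks were injected with 2.5 mg on each of 5 consecutive days. The labels give P56 as the day of collection for both libraries, whereas the study's text describes a later one for the adult pulse. Its methods describe tibialis anterior muscles pooled from hindlimbs before sorting. Each condition was thus a single library. Time of labelling, age at collection, dose and route, and library preparation cannot be told apart, no test between conditions was possible, and every interval below covers counting error only.

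Wnt ligands are secreted lipid-modified proteins that bind Frizzled receptors together with the co-receptors Lrp5 or Lrp6. In the canonical branch this stabilises β-catenin, which acts with TCF/LEF factors on target genes such as *Axin2*, while other ligands act through routes that do not need β-catenin. Secreted Frizzled-related proteins (the Sfrp genes and *Frzb*) and Wif1 bind the ligands, Dickkopf proteins bind the co-receptors, and R-spondins raise the amount of Frizzled at the cell surface.

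The E10-P56 library held 8236 barcodes and 67460919 UMIs (unique molecular identifiers, 1 for each captured RNA molecule), and the adult pulse 9195 barcodes and 69153173 UMIs. After barcodes under 1500 UMIs or over 10% mitochondrial UMIs had been left out, 6087 and 8567 cells remained, with medians of 7648 and 7344 UMIs. Among all barcodes, 15 sequences occurred in both libraries. Cells were clustered without the 38 genes and clusters were named from marker lists that held none of them. Fibroblast-like cells were most numerous, at 4094 cells (E10-P56) and 7095 cells (adult pulse). Nerve-associated cells comprised perineurial-like (177 and 36), endoneurial-like (62 and 145) and Schwann-like cells (140 and 21). Tenocyte-like (214 and 563), osteochondral-like (59 and 68) and endothelial-like cells (27 and 53) were also present, along with pericyte-like (425 and 395), smooth muscle cell progenitor-like (SMCP-like; 265 and 141) and vascular smooth muscle-like cells (VSMC-like; 215 and 23). Cycling-like cells (336 and 27) were much deeper than the rest in E10-P56, with a median of 27170 UMIs. A cluster of 73 E10-P56 cells led by *Cxcl5*, *Cxcl3* and *Ccl2* met no marker list and stayed unnamed. Endoneurial-like cells included a cluster of 34 cells with none of the endoneurial markers among its 10 leading genes.

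**Figure D1:**
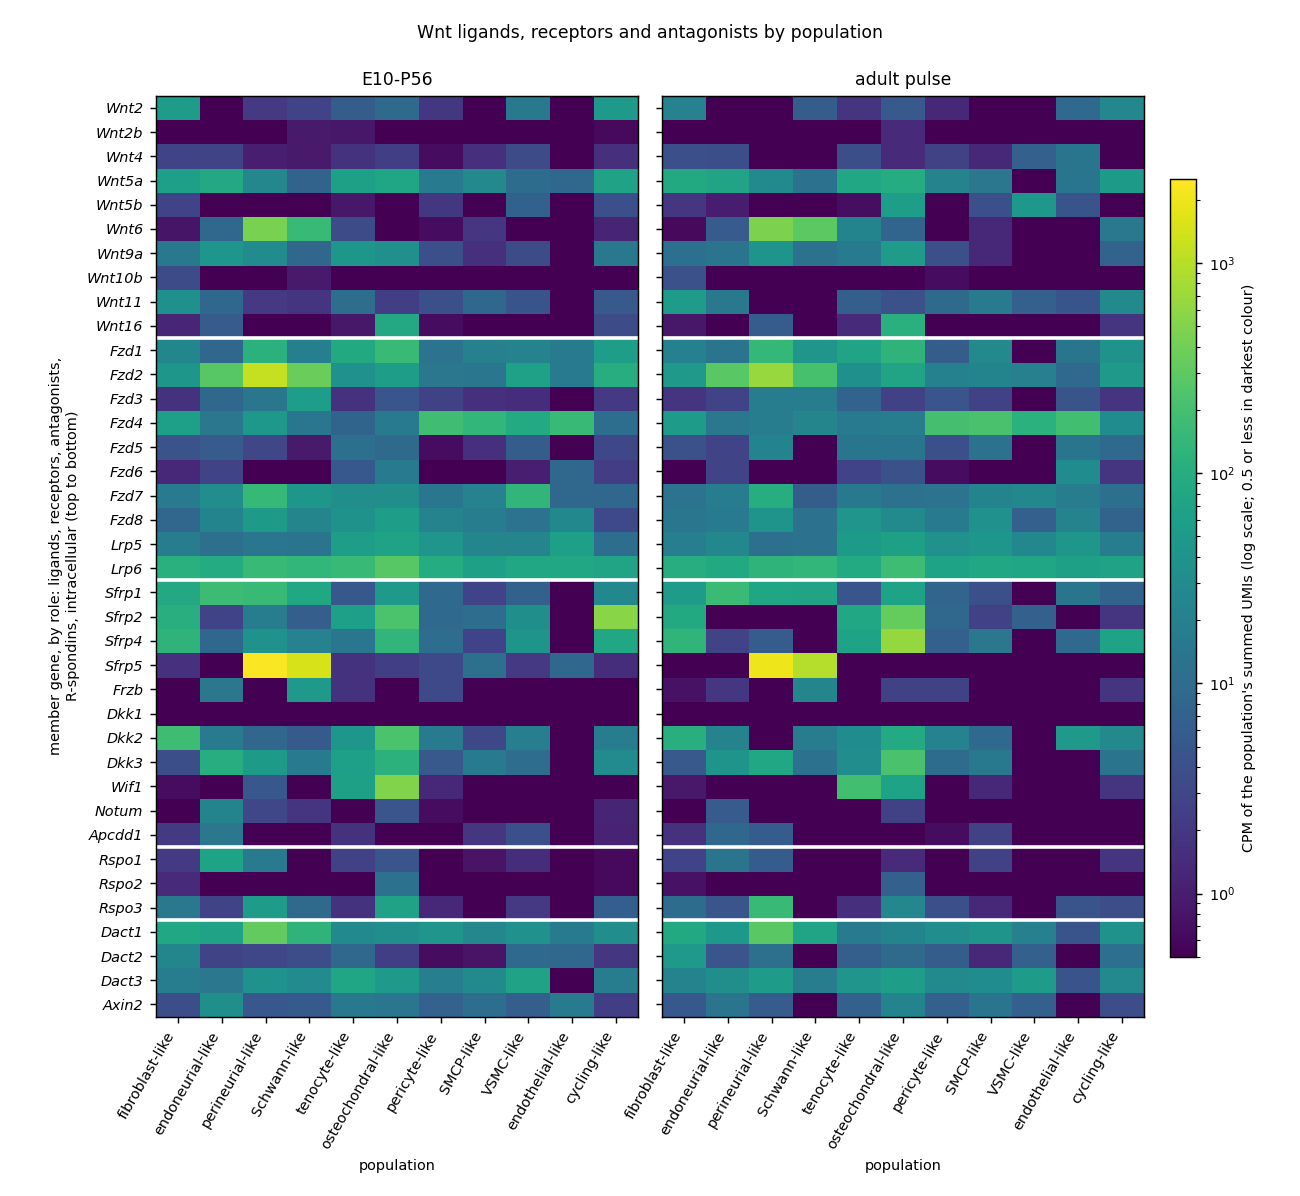
Level of each of the 38 genes, in CPM (UMIs of the gene scaled to the summed UMIs of the population, on a log colour scale), in 11 named populations of each library, with white lines between roles. Bright cells for *Wnt6*, *Fzd2* and *Sfrp5* stand in the perineurial-like and Schwann-like columns of both libraries, and *Fzd4* is bright across the mural and endothelial columns.

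A gene was called restricted to a population when its CPM (the gene's UMIs on the counts-per-million scale of the population) there was at least 4-fold above the next named population, for genes with at least 50 UMIs. In E10-P56, 35 of the 38 genes reached that number and 5 (14.3%) were called, beside 5.28% of all 13112 genes that reached it. These were *Rspo1* in endoneurial-like cells, *Fzd3* in Schwann-like cells and *Wif1*, *Wnt16* and *Rspo2* in osteochondral-like cells. In the adult pulse 6 of 33 genes (18.2%) were called, beside 5.09% of all 13145 genes. These were *Rspo3* in perineurial-like, *Frzb* in Schwann-like and *Wnt16* and *Sfrp4* in osteochondral-like cells, with *Wnt10b* and *Dact2* in fibroblast-like cells. Calls compare pooled populations, and fibroblast-like cluster 10, described below, matched the osteochondral-like level of *Sfrp4* within counting error. *Wnt16* was the single gene called in both libraries, in the same population. Of 33 genes that could be ranked in both, 18 (54.5%) had the same highest population, beside 36.7% of all 12613 genes ranked in both. *Wnt2b*, *Notum* and *Dkk1* were under the minimum in both, and *Dkk1*, a Dickkopf antagonist, had 2 and 0 UMIs. Several of these calls were made against populations with few UMIs, and the population next to fibroblast-like cells for *Wnt10b*, pericyte-like cells, held 1 UMI of it. With each population under 3 UMIs of a gene taken at 3 UMIs, 1 gene was called in E10-P56, *Wif1*, and 3 in the adult pulse, *Wnt16*, *Rspo3* and *Sfrp4*, beside 2.40% and 2.71% of all genes. The calls of *Wnt16* in E10-P56 and of *Wnt10b*, *Dact2* and *Frzb* in the adult pulse were among those lost. Leaving out the cell with the most UMIs of the gene took *Rspo1* (3.61-fold) and *Fzd3* (3.76-fold) of E10-P56 and *Rspo3* (3.55-fold) and *Sfrp4* (3.997-fold) of the adult pulse under the limit. Both settings were added after the values were known. Without the cycling-, Schwann-, endothelial- and osteochondral-like cells, which was tried once the data were known, 7 of 34 and 9 of 33 genes were called, beside 4.78% of 12642 and 4.97% of 12985 genes. *Wnt6* and *Sfrp5* in perineurial-like and *Wif1* in tenocyte-like cells were then called in both libraries.

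Perineurial cells form the sheath around nerve fascicles, and their counterparts here had the highest level of a ligand, a receptor, an antagonist and an intracellular regulator in both libraries. *Wnt6*, a ligand, reached 447 CPM (95% Poisson interval 406 to 491) in perineurial-like cells of E10-P56 and 464 CPM (368 to 579) in adult pulse ones. In fibroblast-like cells it was at 0.798 and 0.615 CPM. *Sfrp5*, which encodes a secreted Frizzled-related antagonist, stood at 2342 CPM (2247 to 2440) and 2027 CPM (1819 to 2253) in perineurial-like cells. Its fibroblast-like levels were 1.69 and 0.205 CPM, and 0 of its UMIs lay in tenocyte-, pericyte- or endoneurial-like cells of the adult pulse. *Fzd2*, a Frizzled receptor, was at 1194 CPM (1126 to 1264) in E10-P56 and 670 CPM (553 to 805) in the adult pulse, so the perineurial-like level was above the endoneurial-like one (274 and 280 CPM) in both. *Dact1*, which encodes an intracellular modulator of Dishevelled, was at 318 CPM (284 to 355) and 282 CPM (208 to 374), above the pooled fibroblast-like 82.2 and 89.4 CPM. Fibroblast-like cluster 3 of E10-P56, described below, was at 279 CPM of *Dact1*, and its interval overlapped the perineurial-like one.

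The 3 of these genes for which RefSeq promoters of GRCm38.p6 were at hand are shown over the 250 bases before the start site, 5′ to 3′ on the coding strand, since they share their highest population. Capitals mark GC boxes, GGGCGG on either strand, of which overlapping ones run together.
*Wnt6*, chr1:74771642-74771891, plus strand: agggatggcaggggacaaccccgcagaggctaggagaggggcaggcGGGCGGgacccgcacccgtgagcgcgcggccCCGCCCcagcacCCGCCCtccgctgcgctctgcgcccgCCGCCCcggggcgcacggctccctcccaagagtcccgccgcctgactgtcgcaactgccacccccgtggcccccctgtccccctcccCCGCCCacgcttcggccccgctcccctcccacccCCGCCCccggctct
*Sfrp5*, chr19:42202253-42202502, minus strand: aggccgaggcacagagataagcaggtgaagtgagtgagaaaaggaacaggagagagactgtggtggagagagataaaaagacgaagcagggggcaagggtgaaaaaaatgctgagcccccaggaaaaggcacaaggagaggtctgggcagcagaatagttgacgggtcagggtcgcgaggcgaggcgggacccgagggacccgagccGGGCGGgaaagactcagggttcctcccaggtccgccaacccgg
*Dact1*, chr12:71309634-71309883, plus strand: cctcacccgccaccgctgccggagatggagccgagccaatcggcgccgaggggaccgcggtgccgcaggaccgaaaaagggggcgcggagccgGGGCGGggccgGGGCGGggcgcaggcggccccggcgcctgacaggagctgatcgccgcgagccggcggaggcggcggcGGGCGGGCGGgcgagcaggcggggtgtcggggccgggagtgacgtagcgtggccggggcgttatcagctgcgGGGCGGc
*Wnt6* held 6 GC boxes, *Dact1* 5 and *Sfrp5* 1, and 32.7% of the 32851 RefSeq promoters hold at least 1 in a window of this length. The letters CTTTGAT, the core of a TCF/LEF motif, were in none of the 3 windows on either strand, and 3.21% of all promoters hold them. Of 27 promoters of the described genes, which covered 24 of the 38, those of *Wnt11* and *Wnt5b* held CTTTGAT.

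Detection in single cells followed the summed levels. After each cell had been thinned to 1500 UMIs, *Sfrp5* was detected in 71.2% of perineurial-like cells of E10-P56 (exact Clopper-Pearson interval 63.9 to 77.7%) and 69.4% (51.9 to 83.7%) of those of the adult pulse. The fibroblast-like shares were 0.318% and 0.0423%. Unthinned, the perineurial-like shares were 86.4% and 80.6%, at median depths of 4760 and 4496.5 UMIs, and the fibroblast-like shares 1.42% and 0.169%, at medians of 8466.5 and 7667 UMIs. *Wnt6* was detected in 50.8% (43.2 to 58.4%) and 41.7% (25.5 to 59.2%) of thinned perineurial-like cells, beside 0.122% and 0.113% of fibroblast-like cells. Unthinned, UMIs of *Wnt6*, *Sfrp5* and *Fzd2* occurred together in 118 of 177 perineurial-like cells of E10-P56 (66.7%) and 23 of 36 in the adult pulse (63.9%). The same was found in 54 of 140 (38.6%) and 11 of 21 (52.4%) Schwann-like cells.

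Schwann-like cells, with the myelin gene *Mbp* among their leading genes, also carried these transcripts. *Sfrp5* was at 1511 CPM (1438 to 1586) and 980 CPM (834 to 1144), and *Wnt6* at 154 CPM (132 to 180) and 294 CPM (217 to 390). The adult pulse interval of *Wnt6* overlapped that of perineurial-like cells. *Fzd2* was lower than in perineurial-like cells, at 353 and 208 CPM. The same Schwann-like cells held UMIs of 7 of the 8 perineurial markers in each library, and *Msln* was the one at 0. The markers summed to 2103 CPM in Schwann-like cells of E10-P56, against 5768 CPM in perineurial-like cells, and to 2058 against 5494 CPM in the adult pulse. For each marker the Schwann-like level was between 0 and 0.487 of the perineurial-like level in E10-P56, with a median of 0.311, and *Wnt6* (0.345), *Fzd2* (0.295) and *Dact1* (0.40) lay within that range while *Sfrp5* (0.645) lay above it. In the adult pulse the markers with enough UMIs spanned 0.308 to 0.495, and *Sfrp5* (0.483) and *Fzd2* (0.311) lay within, *Wnt6* (0.633) above and *Dact1* (0.261) below. Perineurial-like cells held few UMIs of the Schwann list, 49.2 and 0 CPM summed over 7 markers, against 36981.5 and 15492.5 CPM in Schwann-like cells. Of the Schwann-like cells, 7 of 140 and 6 of 21 were among the top 5% of doublet scores of their library. Of the perineurial-like cells, 21 of 177 in E10-P56 and 1 of 36 in the adult pulse were. The part of perineurial RNA in the Schwann-like values was not tested.

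A pair of genes stood higher in Schwann-like than in perineurial-like cells of E10-P56. *Fzd3*, a receptor with a role in axon guidance, was at 58.0 CPM (44.5 to 74.4) against 14.4 CPM (7.85 to 24.1). *Frzb*, a secreted Frizzled-related antagonist, was at 48.6 CPM (36.3 to 63.8), from 52 UMIs, where perineurial-like cells had 0. With 21 Schwann-like cells in the adult pulse, *Fzd3* had 3 UMIs and *Frzb* 4, and the intervals of *Fzd3* in the 2 populations overlapped.

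**Figure D2:**
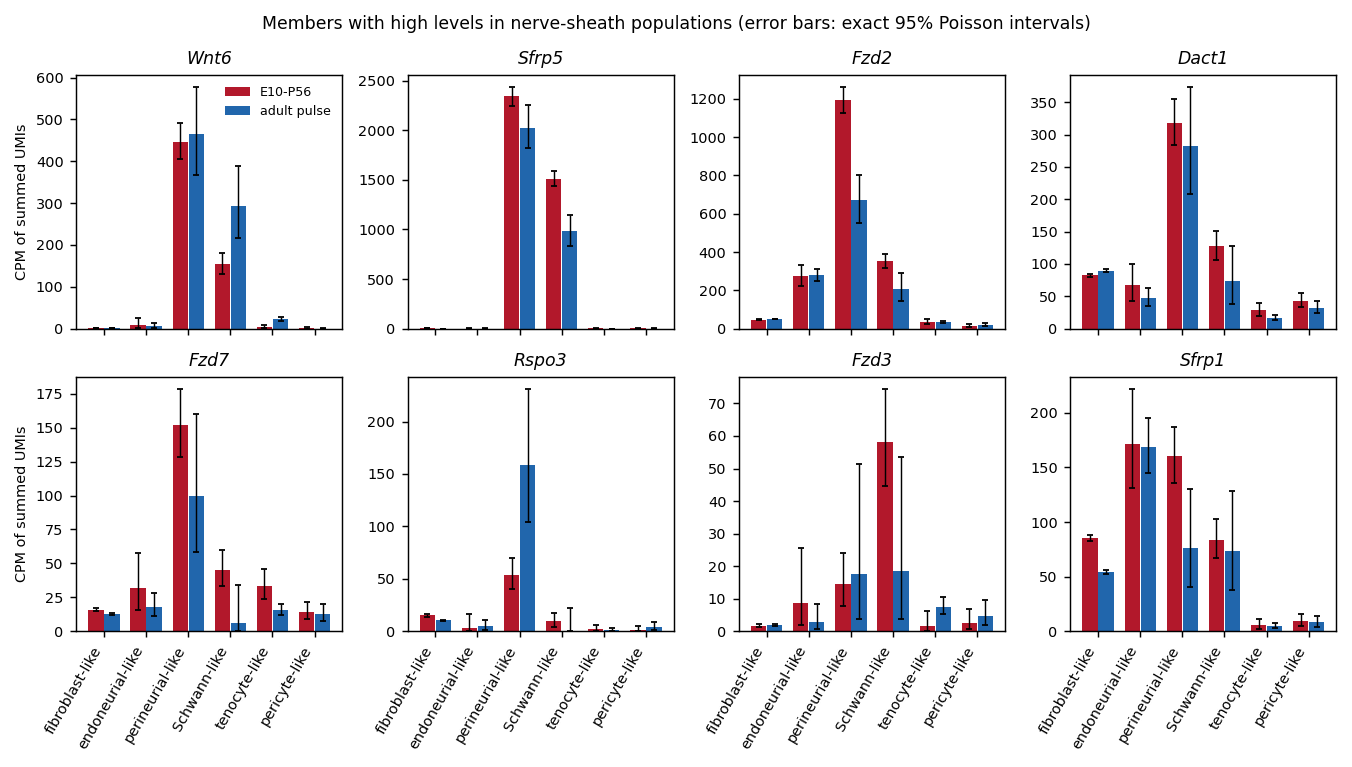
CPM of 8 genes in 6 populations of each library, with red bars for E10-P56, blue bars for the adult pulse and exact 95% Poisson intervals as error bars. *Wnt6* and *Sfrp5* are tall in perineurial-like and Schwann-like cells and near 0 elsewhere, *Fzd2* and *Dact1* are tallest in perineurial-like cells, and the wide adult pulse bars of *Rspo3* and *Fzd3* rest on 27 and 3 UMIs.

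*Rspo3*, an R-spondin, was at 53.3 CPM (39.8 to 69.9) in perineurial-like cells of E10-P56 and 159 CPM (105 to 231) in those of the adult pulse. The latter rested on 27 UMIs in 4 of 36 cells, 12 of them in 1 cell, and was 91.8 CPM without it. In E10-P56 osteochondral-like cells were at 67.1 CPM (44.6 to 97.0) of *Rspo3*, which overlapped. *Fzd7*, a Frizzled receptor, was at 152 CPM (128 to 178) and 99.9 CPM (58.2 to 160) in perineurial-like cells. The adult pulse value of *Fzd7* rested on 17 UMIs in 8 of 36 cells. A single cell held 8 of these UMIs, and the level was 55.9 CPM without it. In E10-P56 the VSMC-like level of *Fzd7*, 134 CPM (118 to 151), overlapped the perineurial-like interval. The adult pulse value for the 23 VSMC-like cells was 26.9 CPM from 4 UMIs. *Wnt10a* and *Sostdc1*, a ligand and a secreted antagonist from the list of 78 other Wnt pathway genes, were likewise highest in perineurial-like and Schwann-like cells. *Wnt10a* was at 110 CPM (89.9 to 133) and 135 CPM (85.7 to 203) in perineurial-like cells, and *Sostdc1* at 192 CPM (166 to 220) and 337 CPM (254 to 438) in Schwann-like cells.

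Endoneurial cells are the fibroblasts within nerve fascicles. *Sfrp1*, another secreted Frizzled-related antagonist, was at 172 CPM (131 to 222) in endoneurial-like cells of E10-P56 and 168 CPM (145 to 195) in those of the adult pulse. Pooled fibroblast-like cells were lower at 85.6 and 54.1 CPM. Of the fibroblast-like clusters described below, cluster 7 of E10-P56 was above the endoneurial-like level at 253 CPM. Cluster 5 of the adult pulse overlapped it at 152 CPM. In E10-P56 the perineurial-like level of *Sfrp1* was 160 CPM (136 to 187), which overlapped the endoneurial-like interval. *Rspo1*, an R-spondin, was at 69.9 CPM (44.8 to 104) from 24 UMIs in endoneurial-like cells of E10-P56 and 13.3 CPM (7.28 to 22.4) from 14 UMIs in those of the adult pulse. Fibroblast-like cluster 10 was at 20.2 and 37.4 CPM of *Rspo1*, so its adult pulse level was above the endoneurial-like one. *Axin2*, a direct target of β-catenin that feeds back on the pathway, was at 34.9 CPM (18.1 to 61.0) in endoneurial-like and 3.82 CPM in fibroblast-like cells of E10-P56. Its adult pulse endoneurial-like level was 13.3 CPM (7.28 to 22.4), fibroblast-like 5.16 CPM and osteochondral-like 23.1 CPM (13.5 to 37.0). *Notum*, a secreted Wnt-inactivating enzyme, had 8 UMIs in 62 endoneurial-like cells of E10-P56 (23.3 CPM, 10.1 to 45.9) and 6 in 145 of the adult pulse (5.71 CPM, 2.10 to 12.4), and 0.218 and 0.103 CPM in fibroblast-like cells. *Apcdd1*, a membrane antagonist that responds to Wnt, followed the same order at 14.6 and 8.57 CPM. *Lef1*, a TCF/LEF factor from the other list, was at 32.0 CPM (16.0 to 57.3) and 11.4 CPM (5.90 to 19.9) in endoneurial-like and 0.0342 CPM in adult pulse fibroblast-like cells. These feedback genes thus stood higher in the pooled endoneurial-like than in pooled fibroblast-like cells of both libraries, on 5 to 14 UMIs each. In the adult pulse *Axin2* did not stand above every fibroblast-like cluster. Cluster 4, described below, was at 15.6 CPM of it, and SMCP-like cells were at 13.1 CPM. The endoneurial-like pool took in the 34-cell cluster that had no endoneurial marker among its leading genes. That cluster supplied 16 of the 62 cells for E10-P56, and 18 of the 145 for the adult pulse. Whether the UMIs of the feedback genes, or of *Rspo1*, lay in that cluster was not tested.

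Tenocytes are the fibroblasts of tendon. *Wif1*, which encodes a secreted Wnt inhibitory factor, was highest in tenocyte-like and osteochondral-like cells, in opposite order in the 2 libraries. In E10-P56 it was at 492 CPM (427 to 564) in osteochondral-like and 63.9 CPM (50.1 to 80.4) in tenocyte-like cells. The adult pulse levels of *Wif1* were 69.3 CPM (51.6 to 91.1) and 188 CPM (175 to 201). A single osteochondral-like cell held 102 of the 205 UMIs in E10-P56, and the level was 257 CPM without it, still above the tenocyte-like one. Fibroblast-like levels were 0.653 and 0.889 CPM. In tenocyte-like cells *Wif1* was detected in 4.67% (2.26 to 8.43%) and 12.6% (9.98 to 15.6%) after thinning, and in 7.94% and 19.5% unthinned, at medians of 4592.5 and 6610 UMIs. The fibroblast-like shares of *Wif1* were 0.147% and 0.0987%.

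The osteochondral-like cells, led by *Bglap2*, *Bglap* and *Chad*, passed 3 markers of their list and also held tenocyte markers at 5146 and 2733 CPM in the 2 libraries, against 28165 and 19198 CPM in tenocyte-like cells. In osteochondral-like cells the markers of their own list summed to 2508 and 1738 CPM, and fibroblast markers to 12556 and 28483 CPM. The osteochondral-like cells of the 2 libraries thus differed in their marker sums. *Wnt16*, a ligand known in bone, was at 86.3 CPM (60.5 to 120) there in E10-P56 and 113 CPM (89.8 to 140) in the adult pulse, from 36 and 83 UMIs. No other population of 20 or more cells exceeded 5.88 CPM of *Wnt16*. *Sfrp4*, a secreted Frizzled-related antagonist, was at 134 CPM (101 to 174) and 640 CPM (583 to 700), and the former overlapped the fibroblast-like 125 CPM (122 to 129). Fibroblast-like cluster 10, described below, was at 541 and 599 CPM of *Sfrp4*. That was above the osteochondral-like level in E10-P56 and overlapped it in the adult pulse. *Dkk3*, a divergent Dickkopf family member, was at 118 CPM (86.9 to 155) and 219 CPM (186 to 255), and in E10-P56 its endoneurial-like level of 102 CPM (71.0 to 142) overlapped. *Wnt5b*, a ligand of the routes that do not need β-catenin, had 0 UMIs in osteochondral-like cells of E10-P56 and 42 in those of the adult pulse (57.1 CPM, 41.1 to 77.1). VSMC-like cells of the adult pulse were at 47.1 CPM (18.9 to 97.0) of *Wnt5b*, and the intervals overlapped. The top *Wnt5b* level of E10-P56 was that of VSMC-like cells, 7.11 CPM (3.89 to 11.9), which overlapped cycling-like cells at 3.97 CPM (2.83 to 5.43). *Rspo2* had 5 UMIs in osteochondral-like cells of each library (12.0 and 6.79 CPM), and 58 and 44 UMIs in fibroblast-like cells (1.40 and 0.752 CPM). *Fzd1* was at 153 CPM (118 to 196) and 128 CPM (103 to 156), and the intervals overlapped those of perineurial-like cells at 116 CPM (95.5 to 139) and 147 CPM (95.1 to 217). *Lrp6* was highest here too, at 273 CPM (226 to 328) and 179 CPM (150 to 213), but it was above 60 CPM in every named population of both libraries. From the other list, *Fzd9* (95.9 CPM, 68.5 to 131) and *Lgr5* (45.6 CPM, 27.4 to 71.2), a receptor for R-spondins, were restricted to osteochondral-like cells of E10-P56, and had 2 and 4 UMIs in those of the adult pulse.

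**Figure D3:**
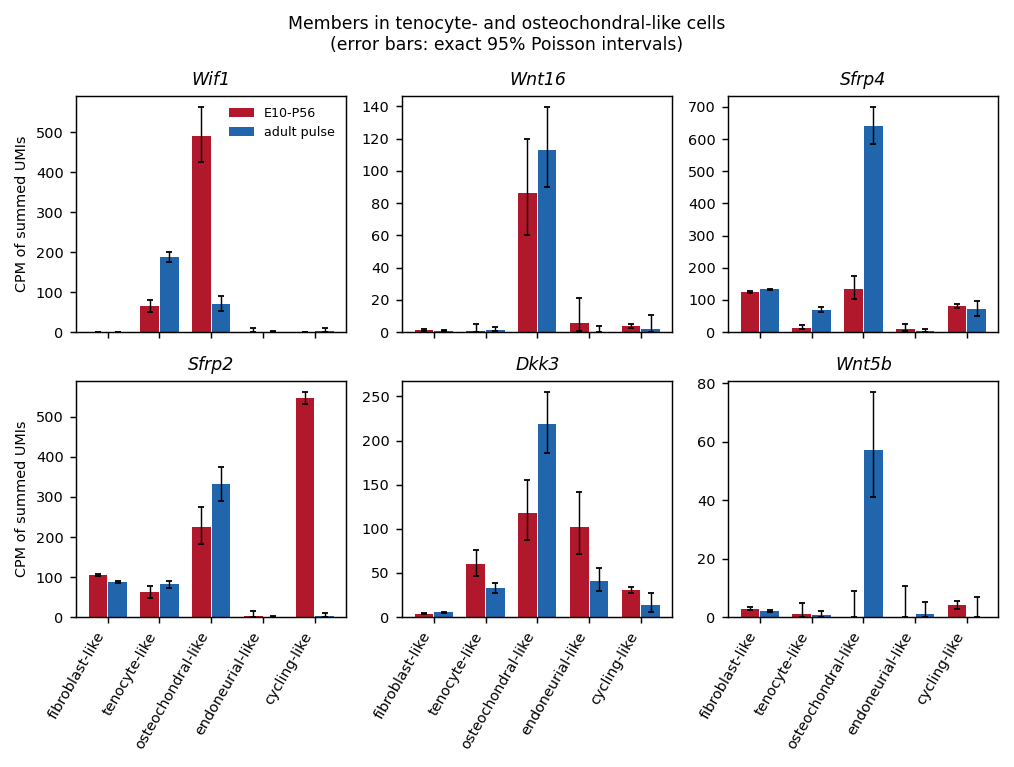
CPM of 6 genes in 5 populations of each library, with red bars for E10-P56, blue bars for the adult pulse and exact 95% Poisson intervals as error bars. *Wif1* is tallest in osteochondral-like cells of E10-P56 and tenocyte-like cells of the adult pulse, *Wnt16* is tall in osteochondral-like cells alone, and *Sfrp2* in cycling-like cells is tall for E10-P56 and near 0 for the adult pulse.

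*Fzd4*, a Frizzled receptor with a known role in vessels, was highest in vessel-associated cells. In E10-P56 it was at 185 CPM (164 to 209) in pericyte-like, 158 CPM (93.7 to 250) in endothelial-like, 141 CPM (127 to 156) in SMCP-like and 90.9 CPM (78.1 to 105) in VSMC-like cells. The adult pulse levels were 203 CPM (181 to 227), 191 CPM (138 to 259), 216 CPM (185 to 252) and 114 CPM (66.6 to 183). Fibroblast-like cells were lower at 60.6 and 55.8 CPM, and tenocyte-like cells at 7.88 and 17.0 CPM. After thinning, *Fzd4* was detected in 24.9% (20.9 to 29.3%) and 28.1% (23.7 to 32.8%) of pericyte-like cells, with medians of 3086 and 3211 UMIs, and in 0.935% and 2.66% of tenocyte-like cells. Unthinned, the shares were 41.9% and 48.1% against 3.74% and 9.77%. The order of the pericyte-, endothelial- and SMCP-like levels was within counting error in the adult pulse. Endothelial-like cells also held pericyte markers, at 11383 CPM summed in E10-P56 and 1741 CPM in the adult pulse. Pericyte-like cells held these markers at 21949 and 20170 CPM. The endothelial markers of endothelial-like cells summed to 4427 and 5888 CPM. The part of pericyte RNA in the endothelial-like values was not tested.

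Cycling-like cells, led by *Mki67* and *Cenpf* and with *Saa3*, *Tnc* and *Lrrc15* among their 10 leading genes, held *Sfrp2* at 548 CPM (534 to 563) in E10-P56 and 1.86 CPM, 1 UMI, in the 27 cells of the adult pulse. The cells under this name were unlike in the 2 libraries. Their cycling markers summed to 552 CPM in E10-P56 and 2748 CPM in the adult pulse, and their tenocyte markers to 276 and 2204 CPM. The study's methods describe a smaller set of *Birc5*+ cycling cells in its adult muscle data. How many of the cells named here were cycling was not tested. *Sfrp2*, a secreted Frizzled-related antagonist, was at 105 and 86.9 CPM in pooled fibroblast-like cells, and 225 and 331 CPM in osteochondral-like cells. Fibroblast-like cluster 10 of E10-P56, described below, was at 563 CPM of *Sfrp2*, alike to the cycling-like level within counting error. *Cthrc1*, a secreted cofactor of noncanonical Wnt signalling from the other list, was restricted to the cycling-like cells of E10-P56 at 1345 CPM (1322 to 1368), and was at 490 CPM (433 to 553) in those of the adult pulse. In fibroblast-like cells *Cthrc1* was at 197 CPM and 4.89 CPM. The unnamed E10-P56 cluster had *Wnt2* at 116 CPM (97.9 to 136).

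Fibroblast-like cells led in 4 genes of each library. In E10-P56 these included *Wnt11*, a ligand of the routes that do not need β-catenin, at 35.7 CPM (33.9 to 37.5), and *Dact2*, an intracellular Dishevelled-binding gene, at 25.04 CPM (23.5 to 26.6). Their adult pulse levels were 55.7 CPM (53.8 to 57.7) for *Wnt11* and 49.5 CPM (47.7 to 51.3) for *Dact2*. *Wnt10b*, a canonical ligand that opposes fat cell formation, was at 3.68 CPM (3.12 to 4.31) and 4.12 CPM (3.61 to 4.67), and 8 of the 10 other named populations of E10-P56 and 9 of 10 in the adult pulse had none of its UMIs. In small populations 0 UMIs cannot show a lower level. For example, 3 UMIs would be 13.7 CPM in endothelial-like and 20.2 CPM in VSMC-like cells of the adult pulse. *Dkk2*, a Dickkopf antagonist, was at 180 CPM (176 to 184) and 106 CPM (103 to 108), near its osteochondral-like levels of 221 CPM (178 to 271) and 92.4 CPM (71.7 to 117), and at 8.20 CPM and 0 UMIs in perineurial-like cells. *Wnt5a*, the main ligand of the noncanonical branch, was at 61.5 and 86.9 CPM, with endoneurial-, tenocyte- and osteochondral-like cells between 63.1 and 96.5 CPM. Perineurial-, pericyte- and SMCP-like cells were lower, between 14.4 and 29.4 CPM of *Wnt5a*.

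The remaining receptors and ligands were spread over several populations. *Lrp5*, the partner of *Lrp6*, was at 67.1 CPM (44.6 to 97.0) in osteochondral-like and 57.8 CPM (44.7 to 73.5) in tenocyte-like cells of E10-P56. Its adult pulse levels there were 63.9 CPM (46.9 to 84.9) and 51.8 CPM (45.3 to 59.0), and the intervals overlapped in both libraries. *Fzd8* was highest in osteochondral-like cells of E10-P56 (59.95 CPM, 38.8 to 88.5) and tenocyte-like cells of the adult pulse (42.0 CPM, 36.1 to 48.5), with perineurial-like cells at 51.3 and 41.1 CPM. *Wnt9a* was at 44.7 CPM in tenocyte-like and 43.7 CPM in endoneurial-like cells of E10-P56, and highest in osteochondral-like cells of the adult pulse at 53.0 CPM (37.7 to 72.4). Beside fibroblast-like clusters, *Dact3* was at 74.4 CPM (59.5 to 92.0) in tenocyte-like and 68.0 CPM (57.0 to 80.6) in VSMC-like cells of E10-P56, with 53.8 CPM (23.2 to 106) over 23 adult pulse VSMC-like cells. *Fzd5* did not exceed 11.4 CPM in any named population of E10-P56, and its highest adult pulse level, 23.5 CPM, rested on 4 UMIs. *Wnt4*, *Fzd6* and *Wnt2b* were sparse. *Wnt4* was at 2.83 and 3.96 CPM in fibroblast-like cells, *Fzd6* reached its highest level, 31.9 CPM (12.8 to 65.7), on 7 UMIs in endothelial-like cells of the adult pulse, and *Wnt2b* had 17 and 10 UMIs in all.

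Between the libraries, a gene was called when its CPM in a population differed at least 2-fold, among genes with at least 50 UMIs over both. In fibroblast-like cells 35 of the 38 genes qualified. Higher in E10-P56 were 3 (background 4.78% of 13313 genes) and higher in the adult pulse 1 (background 5.23%), and the median log2 ratio of E10-P56 over adult pulse was 0.09, against 0.07 for all genes. *Wnt2* differed 2.45-fold (2.29 to 2.63), at 53.5 against 21.8 CPM. *Sfrp5* differed 8.26-fold (4.44 to 16.7), but at 1.69 against 0.205 CPM, and the perineurial-like and Schwann-like cells that carry it were 177 and 140 of the cells in E10-P56 against 36 and 21 in the adult pulse. Summed perineurial markers in fibroblast-like cells were 24.8 and 37.3 CPM, and the part of free RNA in this ratio was not tested. *Fzd6* (4.02-fold, 2.35 to 7.19) rested on 54 and 19 UMIs, and *Frzb*, higher in the adult pulse, on 11 and 45. The other 31 stayed within 2-fold, *Dact2* closest to it at a log2 ratio of -0.98. Fewer cells of a subtype and less RNA per cell cannot be told apart in these sums.

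**Figure D4:**
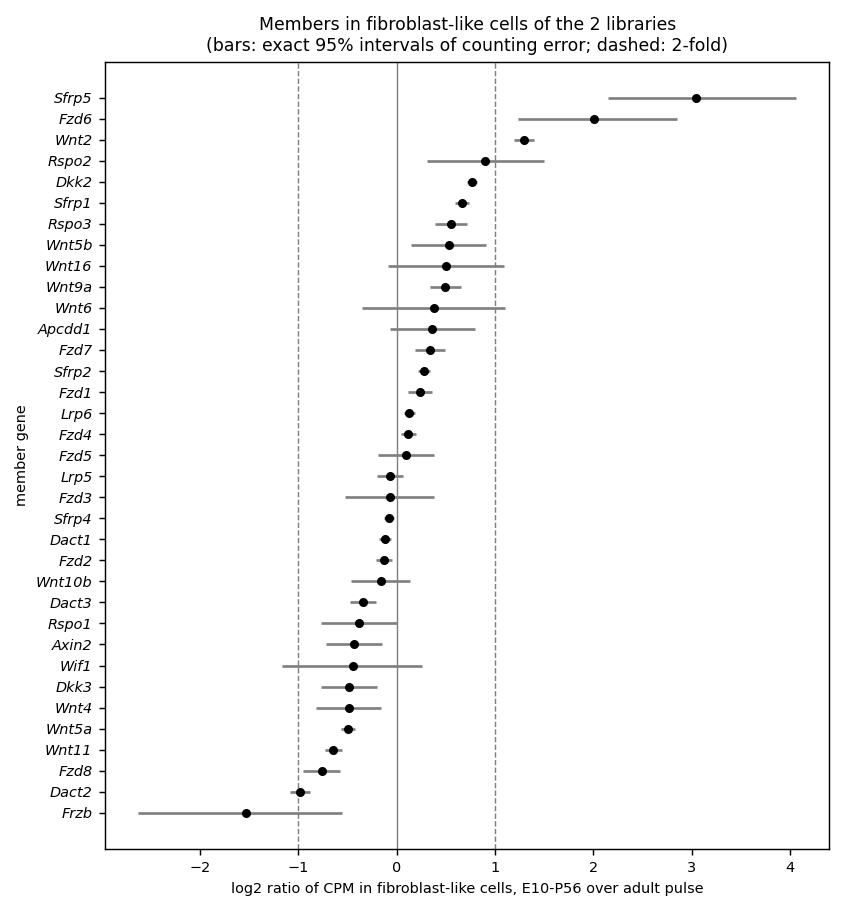
Log2 ratio of CPM in fibroblast-like cells, E10-P56 over adult pulse, for the 35 genes with at least 50 UMIs, with exact 95% intervals of counting error as bars and dashed lines at 2-fold. *Sfrp5*, *Fzd6* and *Wnt2* lie to the right of the upper line, *Frzb* to the left of the lower, and the others between them.

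In tenocyte-like cells 18 genes qualified, of which 2 were higher in E10-P56 (background 6.86% of 8599 genes) and 4 in the adult pulse (background 3.7%). *Wnt9a*, a ligand, was higher in E10-P56 at 44.7 against 17.4 CPM (2.56-fold, 1.76 to 3.70), as was *Fzd7* at 33.3 against 15.6 CPM (2.13-fold, 1.40 to 3.22). Higher in the adult pulse were *Wif1* at 63.9 against 188 CPM, *Sfrp4* at 14.0 against 69.7 CPM, *Wnt6* at 3.50 against 23.6 CPM and *Fzd4* at 7.88 against 17.0 CPM. In E10-P56 these rested on 73, 16, 4 and 9 UMIs. The ratio of E10-P56 over adult pulse was 0.340 (0.264 to 0.432) for *Wif1* and 0.148 (0.0397 to 0.391) for *Wnt6*. For *Fzd4* it was 0.465, with an interval of 0.204 to 0.930 that reached well inside 2-fold. *Sfrp4* was also higher in adult pulse osteochondral-like cells, with a ratio of E10-P56 over adult pulse of 0.210 (0.156 to 0.277), close to that in tenocyte-like cells, 0.201 (0.113 to 0.332). In pericyte-like cells 9 genes qualified and 0 passed in either direction, beside a background of 1.95% higher in E10-P56 and 2.46% higher in the adult pulse among 7485 genes. Of the other Wnt pathway genes, 4 of 56 passed 2-fold in fibroblast-like, 5 of 47 in tenocyte-like and 3 of 33 in pericyte-like cells.

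Fibroblast-like cells fell into 8 clusters, most of them mainly from 1 library. Cluster 2 (*Krtdap*, *Dmkn*) held 1569 E10-P56 and 19 adult pulse cells, and cluster 6 (*Aldh1a2*) 1206 and 53. Cluster 1 (*Smoc2*, *Hsd11b1*) held 21 and 2429, cluster 3 (*Stmn4*, *Cd55*) 86 and 1379, and cluster 4 (*Smpd3*, *Uchl1*) 25 and 1408. Cluster 5 (*Car3*, *Cxcl13*), cluster 7 (*Clu*, *Meox1*) and cluster 10 (*Fmo2*, *Gdf10*) were shared, with 786 and 614, 290 and 860, and 111 and 333 cells. The ratios between libraries given above therefore compare different mixtures of clusters. Only clusters of 50 or more cells in a library are described.

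The intracellular genes *Dact1* and *Dact2* were highest in cluster 3 of E10-P56 and in clusters 4 and 3 of the adult pulse. *Dact1* was at 279 CPM (245 to 317) in cluster 3 of E10-P56, and at 167 CPM (159 to 174) in cluster 4 and 137 CPM (130 to 143) in cluster 3 of the adult pulse. *Dact2* was at 120 CPM (98.0 to 146) in cluster 3 and 49.1 CPM in cluster 2 of E10-P56, with the other 4 clusters at 3.76 CPM or lower. Its adult pulse levels were 161 CPM (154 to 169) in cluster 4 and 72.9 CPM in cluster 3, with the other 5 at 8.85 CPM or lower. *Dact3*, the third of the family, had the opposite order: 62.6 and 55.0 CPM in cluster 7 of the 2 libraries, and 5.66 CPM in cluster 2 of E10-P56 and 3.75 CPM in cluster 4 of the adult pulse. *Wnt2* was at 114 CPM (109 to 119) in cluster 2 of E10-P56, 4.80-fold above the next. Among adult pulse clusters it was at 74.9 CPM (69.9 to 80.2) in cluster 4 and 0.906 CPM in cluster 1. *Wnt10b* was highest in clusters 3 and 4, at 10.6 CPM from 9 UMIs in E10-P56 and 11.1 CPM in the adult pulse, and *Wnt11* likewise at 66.0 and 83.0 CPM.

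*Dkk2* and *Sfrp4* were highest in the same clusters of both libraries. *Dkk2* was highest in cluster 5, at 322 CPM (311 to 333) and 337 CPM (323 to 352), and low in cluster 10, at 45.2 and 9.03 CPM. *Sfrp4* was highest in cluster 10, at 541 CPM (492 to 593) and 599 CPM (568 to 631), and low in cluster 5, at 34.4 and 61.0 CPM. *Rspo1* was called 4-fold above the next in cluster 10 of both libraries, at 20.2 CPM (11.8 to 32.3) from 17 UMIs and 37.4 CPM from 87 UMIs. *Dkk3* was called in cluster 10 of the adult pulse at 72.2 CPM (61.7 to 84.0), while in E10-P56 clusters 10 and 7 were alike within counting error, at 24.96 and 22.5 CPM. *Rspo3* was highest in cluster 7, at 44.1 and 30.2 CPM, and had 0 and 2 UMIs in cluster 10, so that the R-spondins *Rspo1* and *Rspo3* were highest in different clusters. *Rspo1* also had UMIs outside cluster 10, with 89 and 164 over all clusters described. The highest cluster differed between libraries for *Sfrp1* and *Sfrp2*. *Sfrp1* was highest in cluster 7 of E10-P56 (253 CPM, 234 to 273) and cluster 5 of the adult pulse (152 CPM, 143 to 163). *Sfrp2* was highest in cluster 10 of E10-P56 (563 CPM, 514 to 616) and cluster 4 of the adult pulse (255 CPM, 246 to 265). *Wif1* was called in cluster 7 of the adult pulse at 5.06 CPM, where *Comp*, a gene also of tendon, was among the leading genes, and was at 5.51 CPM in the same cluster of E10-P56. Of the receptors, *Fzd2* was highest in cluster 10 at 111 and 98.0 CPM. *Fzd4* was at 94.99 and 113 CPM in cluster 5, and at 80.8 and 117 CPM in cluster 10.

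**Figure D5:**
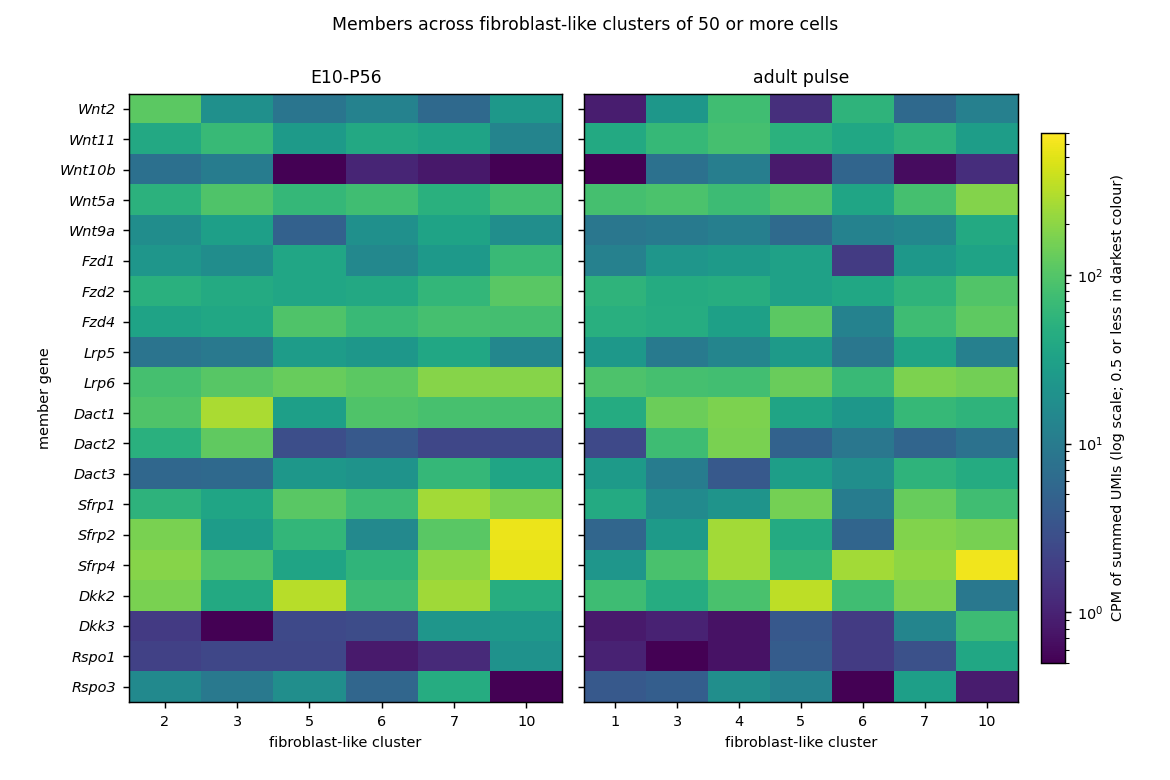
CPM (log colour scale) of 20 of the genes in fibroblast-like clusters of 50 or more cells, 6 for E10-P56 and 7 for the adult pulse. *Dact2* and *Wnt10b* are bright in clusters 2, 3 and 4, *Dkk2* in cluster 5, and *Sfrp4* and *Rspo1* in cluster 10 of both libraries.

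Among the 78 other Wnt pathway genes, 4 of 58 were restricted for E10-P56 and 1 of 57 for the adult pulse by the same rule, beside the backgrounds given above. *Celsr2*, a planar cell polarity cadherin, was at 24.3 CPM (15.9 to 35.6) in Schwann-like cells of E10-P56. *Gpc3*, a glypican that binds Wnts, was at 1245 CPM (1178 to 1314) in endoneurial-like cells of the adult pulse and 850 CPM (755 to 953) in those of E10-P56. The median fold of the highest over the next population was 1.72 for the 35 ranked genes of E10-P56 and 1.87 for the 33 of the adult pulse, against 1.34 and 1.18 for the other pathway genes and 1.26 and 1.28 for all genes.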

How the data were processed

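There was 1 library of sorted cells per condition. For each, the authors deposited a matrix of unnormalized UMI counts, made with Cell Ranger (5.0.0 for E10-P56, 3.0.2 for the adult pulse, per the file headers) on a modified mm10 genome. The labels give 10x Chromium 3' v2 or v3 without saying which library had which. Both matrices list the same features. At 0 UMIs in one library and 100 or more in the other were 8 genes, 0 of them among those described.

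Cells under 1500 UMIs or over 10% mitochondrial UMIs were left out (1310 and 839 barcodes in E10-P56, then 465 and 163 in adult pulse), and doublets were scored but not removed. Both libraries were clustered together on 2000 variable genes without the 38 described, over 30 principal components and 20 neighbours, at Leiden resolution 0.5 (Python 3.11.15 with leidenalg 0.10.2, scikit-learn 1.9.0, scipy 1.17.1, python-igraph 0.11.9, pandas 2.3.3 and numpy 2.4.6), with no correction between libraries. A name needed 3 markers of its list, each in at least 10% of cells with a log2 fold of at least 1 after adding 5 CPM. For names other than fibroblast a mean log2 fold of at least 2 was required, a limit set after the clusters had been seen, and the remaining clusters were then scored for fibroblast markers against the named ones. No cluster met the immune, adipocyte, epithelial or myogenic lists. Names rebuilt in this way can differ from the study's.

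UMIs were summed over a population of 20 or more cells and given as CPM with exact 95% Poisson intervals, and ratios with exact 95% intervals. A next population at 0 UMIs was taken at 3 counts. Intervals cover counting error only and cells are not replicates, so no p-value was taken. All genes of the 38, other pathway genes restricted in either library, and genes 4-fold higher in 1 fibroblast-like cluster are named. *Wnt10a*, *Sostdc1* and *Lef1* were named after their values were seen. The members and lists were chosen with earlier results of these data known. Scripts were tested on simulated data. Alternatives covered cell filters, doublets (scanpy 1.11.5), clustering, naming, summing, gene minimum, folds and thinning.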

Additional observations from a re-analysis of the deposited data

Results flagged for a closer look

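The order of a pair of populations was opposite in the 2 libraries, beyond counting error in each, for 2 genes, and the difference was not tested, with 1 library per condition. The log2 ratio of osteochondral-like over tenocyte-like CPM of *Wif1* was 2.94 (E10-P56) and -1.44 (adult pulse). The log2 ratio of cycling-like over osteochondral-like CPM of *Sfrp2* was 1.28 (E10-P56) and -5.89 (adult pulse), where 1 UMI of *Sfrp2* lay in 27 cycling-like cells. In E10-P56 fibroblast-like cluster 10, at 563 CPM of *Sfrp2*, was alike to the cycling-like cells within counting error. The cycling-like cells of the 2 libraries also differed in their summed cycling and tenocyte markers. The osteochondral-like cells of the 2 libraries differed in their summed osteochondral, tenocyte and fibroblast markers.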

How the results depend on the processing

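No paired analysis was possible because each condition is 1 library and no result comes from a test. With restriction at 3-fold in place of 4-fold, 10 of the described genes were called in E10-P56 (against 5), as were 8 other pathway genes in E10-P56 (against 4) and 3 in the adult pulse (against 1), beside 8.16% and 8.00% of all genes. At 8-fold the described genes called were 2 in each library, and the others 2 and 0, beside 2.41% and 2.18% of all genes. A gene minimum of 200 UMIs left 1 described and 1 other gene in E10-P56, 1 between libraries in fibroblast-like cells (against 4) and 2 in tenocyte-like cells (against 6), beside 3.24%, 6.58% and 6.54% of all genes. A lower UMI minimum per cell gave 3 described genes in E10-P56. Naming each cell by its own markers gave 2 in the adult pulse (against 6) and 3 between libraries in pericyte-like cells (against 0), and a gene minimum of 20 gave 2 there, beside 7.59% of all genes. Between libraries, 1.5-fold called 10 genes in fibroblast-like and 10 in tenocyte-like cells, beside 22.7% and 34.9% of all genes, and 4-fold 2 in each, beside 3.03% and 1.26%. The other pathway genes called in the adult pulse (1) were 3 at a higher UMI minimum per cell, 2 without the top 5% of doublet scores, 2 with each library clustered alone, 2 with cells' CPM averaged and 2 at a gene minimum of 20. Of alternatives chosen after seeing the data, populations of 50 or more cells gave 2 of them, and leaving out cycling-, Schwann-, endothelial- and osteochondral-like cells 6, beside 4.97% of all genes. Taking populations under 3 UMIs at 3 UMIs, also chosen then, left 1 described and 1 other gene in E10-P56 and 3 described genes in the adult pulse, beside 2.40% and 2.71% of all genes. No share of all genes was computed for the alternatives of UMI minimum per cell, doublets, clustering, naming and averaging. The same holds for populations of 50 or more cells and for restriction at a gene minimum of 20. Counts under those alternatives cannot be set against a background. The 4 log2 ratios called between libraries in fibroblast-like cells kept their sign under every alternative that recomputed them. Direction was not checked for other values. Of 641 recomputed levels in the highest population 67 moved beyond their interval, as did 31 of 350 log2 ratios and 33 of 44 shares of cells. With each cell named by its own markers, 20 of 35 genes kept their highest population in E10-P56 and 13 of 33 in the adult pulse. With each library clustered alone, the highest population was found again for 23 genes of E10-P56, of which 21 kept it. In the adult pulse it was found for 10 genes, of which 9 kept it, so the other adult pulse rankings rest on clustering both libraries together. With 1 library per condition, populations of 21 to 36 cells give the least precise levels, and the cause of none of these changes was tested.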
